A study of Homo sapiens with 33 samples.

Results

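The exon 9 knockout of GABPB1 in A-375 cells was described across the genes of its own deposited comparison with A-375 controls. Genes were members if their mean normalized count over the libraries of the fit was at least 10, and 14151 of the 14160 entries met this. A-375 is an established human melanoma line, labelled as skin, and 8 of the 33 libraries of the series belong to these groups. The knockout group, A375_B1LKO, has 2 libraries, each from a different clone in which exon 9 of GABPB1 was removed with Cas9 and a combination of guide RNAs. The controls are A375_parental, 2 libraries of unedited cells, and A375_ROSA26_KO, 4 libraries from 3 clones that were cut at ROSA26, a locus used as a harmless place to edit. Clones were grown from single sorted cells that carried a plasmid for Cas9 and a green fluorescent protein, so what belongs to a clone and what belongs to the deletion cannot be told apart with 2 clones. No drug or other treatment is named for any of these groups.

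GABP is a transcription factor built from GABPA, an ETS protein that binds DNA, and a partner from GABPB1 or GABPB2, which carries the activation domain. GABPB1 is made in a long form, whose last exon encodes a leucine zipper that lets a pair of GABPA and GABPB1 dimers join into a tetramer, and in shorter forms that lack it. GABP is known for driving genes of mitochondrial respiration and basic cell growth, and for binding the mutated TERT promoter found in many melanomas. The exon 9 deletion therefore addresses what the tetramer-forming end contributes, while the total knockout in the same line (12 libraries of 9 clones, lacking exon 2 or exons 2 to 9) removes more of the protein.

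The part of the gene at issue is short. GABPB1 lies on chr15:50275392-50355408, minus strand (GENCODE release 29, hg38), and 4 of its 11 annotated transcripts hold the long-form last exon. In the transcript ENST00000220429.12 the coding bases of exon 9 cover chr15:50278635-50278784, and in the short-form transcript ENST00000429662.6 exon 8 instead reads on through chr15:50286023-50286067 to its own end. Both coding ends are shown from 5′ to 3′ on the gene's strand because they are what distinguishes the forms, with leucine codons in the reading frame in capitals.
ENST00000220429.12 exon 9: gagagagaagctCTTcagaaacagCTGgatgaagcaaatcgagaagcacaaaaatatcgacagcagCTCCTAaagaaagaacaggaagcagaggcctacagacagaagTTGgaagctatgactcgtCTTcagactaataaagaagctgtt
ENST00000429662.6 exon 8 end: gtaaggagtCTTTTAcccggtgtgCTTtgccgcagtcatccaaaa
The long-form end has 50 codons, of which 6 are leucine, and the short-form end has 15 codons, of which 3 are leucine.

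The deposited files used here hold no value per library, so levels are given as group means worked out from the deposited mean, the ratio of the groups and how many libraries each has. They assume 2 parental controls, and the value with all 6 controls is given where it moves the level by more than 1.5 times. The ratio of the groups is the same under either assumption. Each log2 change below is knockout over control, with its standard error, from the authors' deposited table, and a gene is called when the adjusted p of the authors' DESeq2 Wald test (Benjamini-Hochberg) is under 0.05. The error covers the spread between the libraries of the fit, of which the knockout has 2. Total normalized counts per library are unknown here. The mean normalized counts of the table sum to 53514594, the median member has a mean of 1566, and the median standard error of a log2 change is 0.22.

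The long-form entry was under the counting floor in the knockout clones. The entry GABPB1L had an implied level of 1535 in controls and 0.22 in knockouts (authors' deposited table, log2 change -12.79 ± 1.47, DESeq2 adjusted p 1.78e-14). With 3 normalized counts taken as the floor for a group, GABPB1L was at least 512-fold lower if 2 controls entered the fit and at least 341-fold lower if all 6 did. The entry GABPB1S-DEX2 fell in the same way, from 888 in controls to 0.22 in knockouts (authors' deposited table, log2 change -12.00 ± 1.48, DESeq2 adjusted p 1.76e-12). The entry GABPB1S went the other way, from 0.13 in controls to 2040 in knockouts (authors' deposited table, log2 change 13.95 ± 1.04, DESeq2 adjusted p 3.55e-37). These levels were 0.26 and 4080 if all 6 controls entered the fit. GABPB1S was at least 680-fold higher over the same floor. Summed over the 3 entries, GABPB1 stood at 2423 in controls and 2041 in knockouts with 2 controls, and at 1616 and 4080 with 6.

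These entry names do not carry the same reads in both A-375 tables. In the authors' deposited table of the total knockout, the controls hold GABPB1L at 909 and GABPB1S at 525 (390.4 and 226 with 6 controls), both GABPB1L-DEX2 and GABPB1S-DEX2 are under 0.1 in controls, and knockouts hold those 2 entries at 718 and 300. In the exon 9 table the controls hold GABPB1S-DEX2 in place of GABPB1S, and no entry GABPB1L-DEX2 is listed. The controls therefore show a long-form and a short-form entry in both tables, under different short-form names, and the change between the 2 short-form entries of the exon 9 table is a change of name as much as of level. The sources used here do not say what the suffix stands for. The plot of implied levels of the GABPB1 entries shows both tables.

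**Figure D1:**
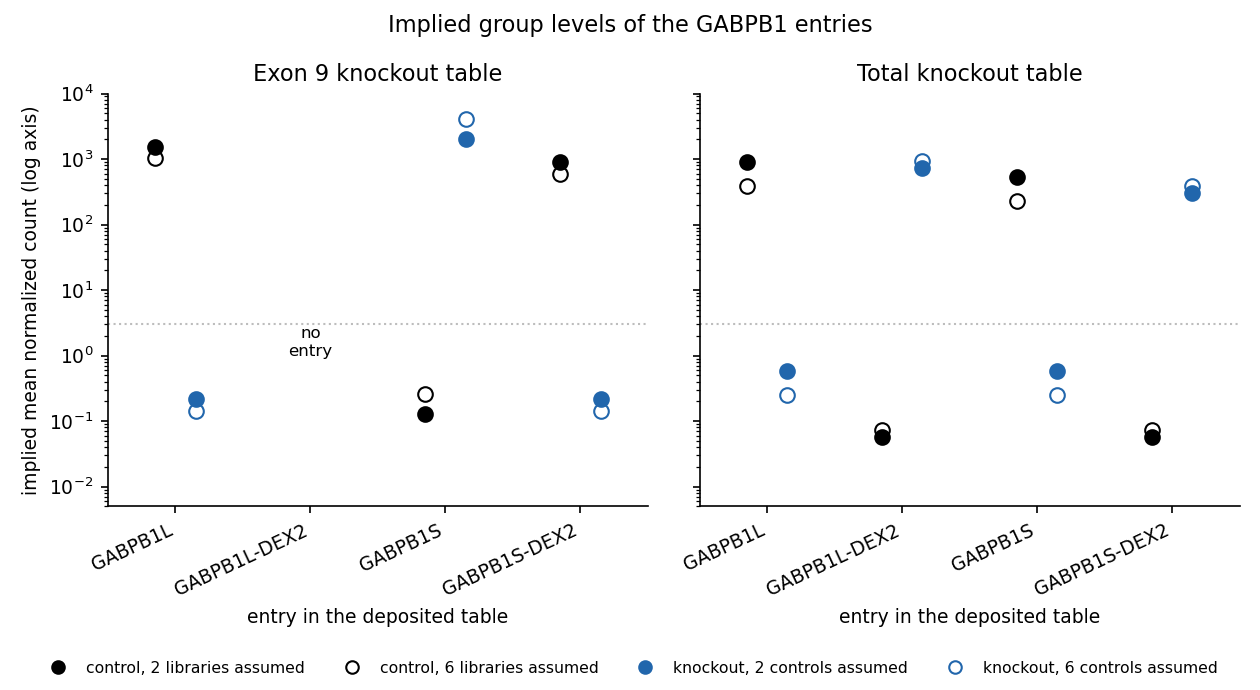
Implied mean normalized count (log axis) of each GABPB1 entry in controls (black) and knockouts (blue), assuming 2 controls (filled) or 6 controls (open), with the floor of 3 counts dotted. GABPB1L is near 1535 in controls and under 1 in knockouts of exon 9, and the short-form entry that the controls hold differs between the 2 tables.

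The rest of the factor was near its control level. GABPA, the DNA-binding subunit, had 2816 normalized counts in controls and 3416 in knockouts (authors' deposited table, log2 change 0.28 ± 0.17, DESeq2 adjusted p 0.552). GABPB2, the paralog that can pair with GABPA, had 347 and 424 (0.29 ± 0.26, DESeq2 adjusted p 0.695). In the total knockout both were called higher in the authors' deposited table, GABPA by 0.81 ± 0.22 and GABPB2 by 1.81 ± 0.32 on the log2 scale. The difference of GABPB2 between the knockouts was -1.51 (normal p of the difference, Benjamini-Hochberg adjusted over 13946 genes, 0.0163), and that of GABPA, -0.53, did not pass (adjusted p 0.272 by the same method). GABPB1-AS1, an antisense RNA that overlaps the start of GABPB1, fell from 1170 to 723 (authors' deposited table, -0.69 ± 0.17, DESeq2 adjusted p 0.00912). The kit marks strand but the sources used here do not say if counting used it, so reads of GABPB1 and its antisense partner may not be separated. None of the 5 measured genes on either side of GABPB1 was called.

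TERT, the catalytic subunit of telomerase, did not pass the test. Its level was 551 in controls and 591 in the exon 9 knockouts, a log2 change of 0.10 ± 0.27 with a 95% interval from -0.42 to 0.63 (authors' deposited table, DESeq2 adjusted p 0.913). In the total knockout TERT fell by 5.16 ± 1.69 on the log2 scale (authors' deposited table, DESeq2 adjusted p 0.0287). The difference between the knockouts, 5.26 on the log2 scale, passed narrowly (normal p, Benjamini-Hochberg adjusted, 0.0489). With each table centred on its median log2 change, that difference did not pass. Of 19 measured genes of telomerase and of shelterin, the complex that caps telomeres, none was called in the exon 9 knockout. Their median log2 change was 0.12, against 0.02 over all members, while the total knockout had 5 of them lower and a median of -0.39. Among the single members, TERF1, a shelterin protein that binds the telomere repeat, changed by 0.25 ± 0.14, and NHP2, a protein of the telomerase particle, by 0.24 ± 0.13, and neither passed (authors' deposited table, DESeq2 adjusted p 0.504 and 0.503).

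Few genes changed beyond the spread between libraries. Of 14149 members with a p, 128 were called, 0.905%, with 34 higher (0.24%) and 94 lower (0.664%). At an unadjusted p under 0.05, 4.61% of members were higher and 6.31% lower. The total knockout, with more libraries but a larger median standard error of 0.28, had 1549 called of 14324, 10.8%, with 5.07% of genes higher and 5.75% lower. A change of at least 2-fold was reached by 11 of the genes called higher and 63 of those called lower. The genes called higher had a median log2 change of 0.54 and a median mean count of 2244, and those called lower had -1.45 and 477.

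The size of change moved with abundance. With members cut into 10 equal bins of mean count, the median log2 change was -0.29 in the lowest bin, -0.20 in the next, near 0 in the middle and 0.12 in the highest. The lowest bin held 21 of the genes called lower and 2 of those called higher, and the ninth bin held 7 called higher and none called lower. Because of this, some of the abundant genes called higher and several lists are also read below against the median of their bin. Other list medians are given without this removal. The plot of log2 change against mean count shows the trend.

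**Figure D2:**
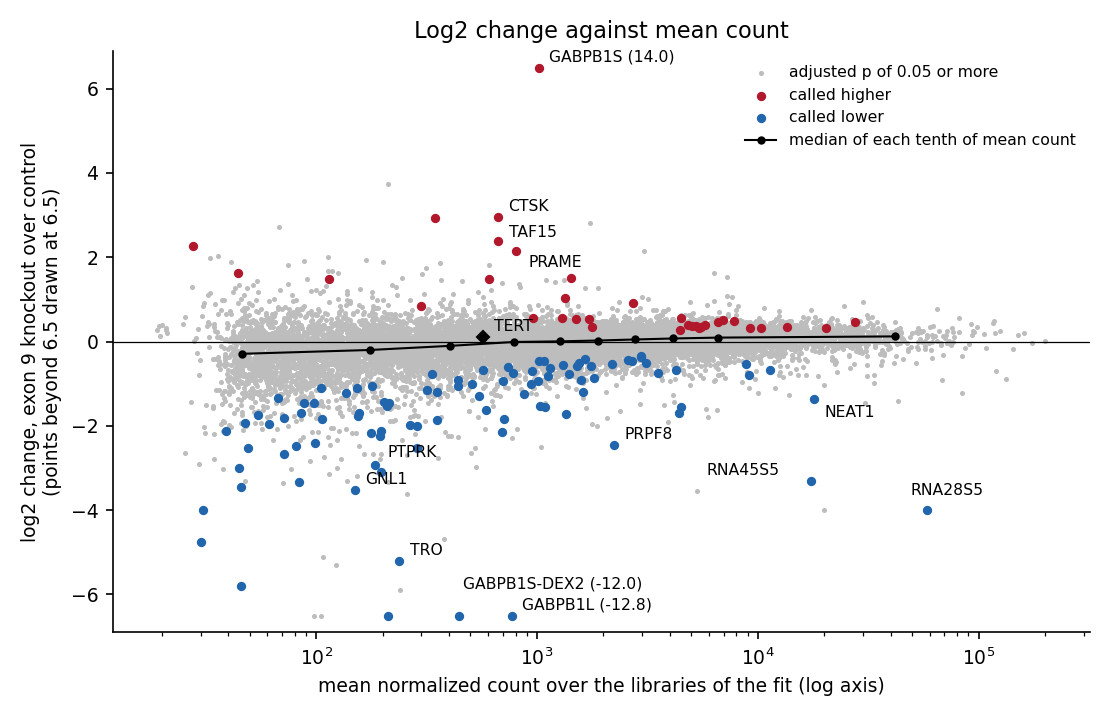
Log2 change of exon 9 knockout over control against mean normalized count (log axis) for all members, with genes called higher in red and lower in blue, points beyond 6.5 drawn at 6.5, and the median of each of 10 bins of mean count in black. Calls below 0 lie mostly at low and middle counts, and TERT, marked by a diamond, lies near 0.

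PRPF8, the central scaffold protein of the spliceosome's catalytic core, was the called gene with the smallest adjusted p outside GABPB1. It fell from 3765 to 684 normalized counts (authors' deposited table, log2 change -2.46 ± 0.21, DESeq2 adjusted p 1.07e-28). PRPF8 lies on chr17:1650629-1684882, where the block of 50 neighbouring genes that holds it had a median log2 change of 0.13. It also fell in the total knockout, by 1.12 ± 0.32 on the log2 scale in the authors' deposited table, and the difference of -1.35 between the knockouts was called (normal p, Benjamini-Hochberg adjusted, 0.0186). Of 30 measured genes of the spliceosome core, PRPF8 was the only one called. The list's median was 0.21 and 25 of its members were above 0, while PRPF8 was its lowest member.

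Among the genes with the largest falls, TRO, trophinin, an adhesion protein of the MAGE family, fell from 464 to 12.6 (authors' deposited table, log2 change -5.21 ± 0.87, DESeq2 adjusted p 6.09e-06). PTPRK, a receptor tyrosine phosphatase of cell contacts, fell from 328 to 43.0 (authors' deposited table, -2.93 ± 0.54, DESeq2 adjusted p 8.96e-05). In the total knockout TRO was also lower, at -2.95, while PTPRK was at -0.38, and the difference of PTPRK between the knockouts was called (-2.56, normal p, adjusted 0.0244). CD40, a receptor of the tumour necrosis factor family, fell by 1.19 ± 0.24 and CTNND2, a catenin of neuronal junctions, by 1.21 ± 0.27 on the log2 scale (authors' deposited table, DESeq2 adjusted p 0.000575 and 0.0029). CTNND2 went up in the total knockout, by 1.60, and its difference of -2.81 was called (normal p, adjusted 4.88e-05). GNL1, a GTP-binding protein, fell from 275 to 23.9 (authors' deposited table, -3.52 ± 0.72, DESeq2 adjusted p 0.000602). MYO15B, an unconventional myosin gene, fell by 1.84 ± 0.31 in the exon 9 knockout and by 2.62 in the total knockout in the authors' deposited tables. None of the 37 measured adhesion and axon guidance receptors was called, and their median was -0.02.

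The filaggrin neighbourhood on chromosome 1 was lower as a group of adjacent genes. FLG, filaggrin, which packs keratin filaments in skin, fell from 6699 to 2289 (authors' deposited table, log2 change -1.55 ± 0.32, DESeq2 adjusted p 0.000626). HRNR, hornerin, a related protein, fell by 1.97 ± 0.40 on the log2 scale (DESeq2 adjusted p 0.000602). FLG2 and FLG-AS1, called as well and named after their values were seen, had log2 changes of -1.80 ± 0.43 and -1.54 ± 0.29 in the authors' deposited table. FLG-AS1 is antisense to this cluster, so the 4 entries may share reads. All 4 were lower in the total knockout too, with FLG at -2.71 and HRNR at -1.65. Of 7 measured keratinocyte markers FLG alone was called, and the list's median was 0.06.

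FOS, TXNIP, IER3 and DUSP1 were called lower. FOS, a subunit of AP-1, fell from 2082 to 628 (authors' deposited table, log2 change -1.73 ± 0.38, DESeq2 adjusted p 0.00336). TXNIP, an inhibitor of thioredoxin that also limits glucose uptake, fell from 6726 to 2063 (-1.71 ± 0.34, DESeq2 adjusted p 0.000602). IER3, a target of ERK signalling, fell by 1.69 ± 0.36 on the log2 scale, from a low mean count of 85.8 (DESeq2 adjusted p 0.00126). DUSP1, a phosphatase of MAP kinases named after its value was seen, fell by 0.61 ± 0.15 (authors' deposited table, DESeq2 adjusted p 0.00912). For IER3 and DUSP1 the difference from the total knockout was called, at -3.99 and -1.14 (normal p, adjusted 0.00278 and 0.00494). The lists held few calls: 1 of 22 AP-1 and immediate early genes and 1 of 23 genes of ERK output, where 0.905% of all members were called. The list medians were 0.08 and -0.17, or 0.06 and -0.27 after removal of the bin medians.

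Matrix genes were called lower in small number. COL6A1 and COL6A2, adjacent genes for collagen VI chains, fell by 0.66 ± 0.15 and 0.79 ± 0.22 on the log2 scale, from 13976 to 8825 and from 11579 to 6714 (authors' deposited table, DESeq2 adjusted p 0.00615 and 0.0448). They were the 2 called of 48 measured genes of the matrix and integrins, whose median was -0.04. Called genes outside the naming rule, chosen after their values were seen, included PLAU, the urokinase protease, at -2.24 ± 0.63, SERPINF1, the secreted factor PEDF, at -1.26 ± 0.36, and MXRA8, a matrix remodelling protein, at -0.94 ± 0.26 (authors' deposited table). Against these, CTSK, cathepsin K, a protease that degrades collagen, rose from 152 to 1176, or from 247 to 1915 with 6 controls (authors' deposited table, log2 change 2.95 ± 0.47, DESeq2 adjusted p 7.46e-07). CTSK was at 0.12 in the total knockout, and the difference of 2.84 was called (normal p, adjusted 0.0103).

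A few other genes called lower are given here, picked after their values were seen. GRIA2, a glutamate receptor subunit, was at -1.46 ± 0.38, and GAL, the neuropeptide galanin, at -2.17 ± 0.55 in the authors' deposited table. Their implied levels in controls were 313 and 290.4. FOXD3, a transcription factor of the neural crest from which melanocytes derive, fell by 1.02 ± 0.28, from 682 to 337 (authors' deposited table, DESeq2 adjusted p 0.0418). PDE2A, a cyclic nucleotide phosphodiesterase, fell by 2.12 ± 0.49 and was at 2.95 in the total knockout.

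Among the genes called higher, 8 entries with names that the naming rule keeps met the size rule, GABPB1S among them. LOC400927-CSNK1E, passed over by name, met it too (authors' deposited table, log2 change 2.93 ± 0.64, DESeq2 adjusted p 0.00211). TAF15, an RNA-binding protein of the FET family, rose from 217 to 1123, or from 327 to 1697 with 6 controls (authors' deposited table, log2 change 2.37 ± 0.53, DESeq2 adjusted p 0.00398). PRAME, a cancer-testis antigen of melanoma, rose from 294 to 1309 (2.16 ± 0.55, DESeq2 adjusted p 0.0173). PRAME was the 1 gene called higher among 22 measured cancer-testis antigens, TRO the 1 called lower, and the list's median was 0.07. ARHGEF3, an exchange factor for RhoA, PCDHGB2, a clustered protocadherin, ADD2, a spectrin-binding adducin, and NPIPA1 rose by 1.50, 1.48, 1.04 and 1.49 on the log2 scale in the authors' deposited table. NPIPA1 belongs to a family of near-identical copies and PCDHGB2 shares exons with its cluster, so reads of both may be split by the counting. ADD2, NPIPA1 and ARHGEF3 lost their call when the median of their block of 50 chromosomal neighbours was subtracted (adjusted p 0.0720, 0.0710 and 0.0784). The plot of named genes in both knockouts sets each beside its value in the total knockout.

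**Figure D3:**
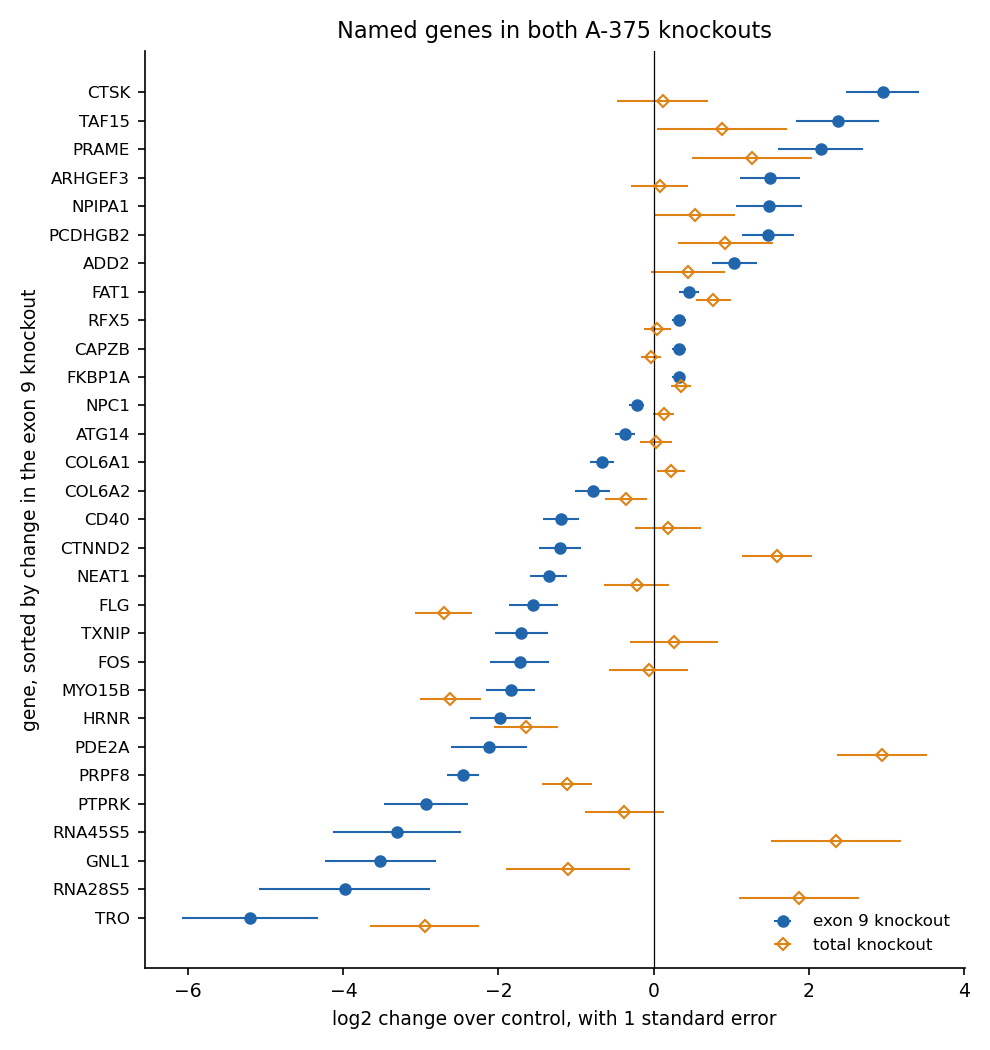
Log2 change over control with 1 standard error for reported genes among the named genes of largest change and highest count, in the exon 9 knockout (filled circles) and the total knockout (open diamonds). TRO, PRPF8, FLG, HRNR and MYO15B lie below 0 in both, while PDE2A, CTNND2, RNA45S5 and RNA28S5 lie below 0 in the exon 9 knockout and above 0 in the total knockout.

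Other genes called higher that the rule names were abundant and changed little. FAT1, a giant cadherin, rose by 0.46 ± 0.13, FKBP1A, a prolyl isomerase, by 0.32 ± 0.08, CAPZB, an actin capping protein, by 0.33 ± 0.09, and RFX5, a regulator of MHC class II genes, by 0.33 ± 0.09 on the log2 scale in the authors' deposited table. FDPS, which makes farnesyl diphosphate for sterol synthesis, rose by 0.47 ± 0.13 on the same scale. TARS2, the mitochondrial threonyl-tRNA synthetase, rose by 0.29 ± 0.08, and NDUFS5, a subunit of respiratory complex I, by 0.40 ± 0.09 (authors' deposited table, DESeq2 adjusted p 0.0234 and 0.00654). None of these 7 kept its call when the median of its bin of mean count was removed, where the adjusted p ran from 0.0619 for NDUFS5 to 0.426 for RFX5. STAT6, a transcription factor of interleukin-4 signalling chosen after its value was seen, stood at 0.35 ± 0.08.

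The lists of respiratory complexes, the mitochondrial ribosome and mitochondrial DNA upkeep, which hold classical targets of GABP, had 1 call. Outside these lists TARS2, given above, and OMA1, a protease of the inner mitochondrial membrane named after its value was seen, were called higher, OMA1 by 0.53 ± 0.15 (authors' deposited table, DESeq2 adjusted p 0.0429). Of 35 measured complex I genes only NDUFS5 was called. The median of the list was 0.13, 29 members were above 0 and 6 (17.1%) passed an unadjusted p of 0.05, all higher, where 4.61% of all members did. At the same p, 5 ATP synthase genes (33.3%), 6 of the mitochondrial ribosome (7.79%) and 1 of complexes II to IV (4%) were higher and none lower. Of the mitochondrial DNA list, 2 were higher and 3 lower. Complexes II to IV (25 genes, median 0.12), ATP synthase (15 genes, 0.13), the mitochondrial ribosome (77 genes, 0.14) and transcription and upkeep of mitochondrial DNA (20 genes, 0.02) had no call in either direction. After removal of the bin medians these medians were 0.07 for complex I, 0.02 for complexes II to IV, 0.04 for ATP synthase and 0.10 for the mitochondrial ribosome. ATP5J2, a subunit of ATP synthase, was at 0.30 ± 0.09, and SSBP1, which coats single-stranded mitochondrial DNA, at 0.74 ± 0.31, and neither passed (authors' deposited table, DESeq2 adjusted p 0.101 and 0.315). The ETS family, to which GABPA belongs, had no call among 17 measured genes and a median of 0.18. No mitochondrially encoded gene is listed in the table.

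Proliferation genes lay on the other side of 0 from the total knockout, with no call in the exon 9 knockout. Of 45 genes of DNA replication and the G1/S transition, 44 were above 0, the median was 0.36 (0.26 after removal of the bin medians) and 13 passed an unadjusted p of 0.05, all higher, where 4.61% of all members did. TYMS, which makes thymidylate, was at 0.72 ± 0.24 (9460 to 15603), and GINS3, of the replicative helicase, at 0.65 ± 0.23, but neither passed (authors' deposited table, DESeq2 adjusted p 0.145 and 0.184). The same list in the total knockout had a median of -0.56 with 4 genes called lower. The difference between the knockouts was called for 4 of its genes, all higher in the exon 9 knockout, as it was for 2.66% of all genes. Homologous recombination and Fanconi genes (31 measured) had a median of 0.22 (0.18 after removal of the bin medians) against -0.68, and no call. They had 6 called differences, FANCD2 and BLM among them (differences of 1.58 and 1.57, normal p, adjusted 0.0383 for each). With each table centred on its median, neither FANCD2 nor BLM kept its called difference. Mitotic genes (42 measured) had a median of 0.21 (0.13 after removal of the bin medians) against -1.01. They had 1 called difference, near the share of 2.66% over all genes. Only 1 of them, 2.38%, was higher at an unadjusted p under 0.05, below the 4.61% of all members.

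The p53 targets also differed between the knockouts for some members. Of 28 measured targets none was called in the exon 9 knockout and the median was -0.02, while 19 were called higher in the total knockout with a median of 0.84. The difference was called lower in the exon 9 knockout for 7 of them. Over all genes, 5.07% were called higher in the total knockout and 1.79% had a difference called lower in the exon 9 knockout. PLK3, a kinase of the damage response, was at -0.35 ± 0.28 in the exon 9 knockout and at 1.25 in the total knockout, and PHLDA3, an inhibitor of AKT, at -0.32 ± 0.20 and 0.92 in the authors' deposited tables; both were picked after their values were seen. BBC3, a pro-apoptotic protein, was at -0.51 ± 0.21 (DESeq2 adjusted p 0.321), with a called difference of -1.20 (normal p, adjusted 0.0427). Of the 28 targets, 13 were above 0 in the exon 9 knockout, XPC among them at 0.44 ± 0.18 (DESeq2 adjusted p 0.315). The comparisons may share control libraries, so only the values and the test of the difference are given.

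Across all genes the difference between exon 9 and total knockout was called for 621 of 13946, 4.45%, with 371 higher (2.66%) and 250 lower (1.79%) in the exon 9 knockout. That count takes the tables as independent, and with a correlation of 0.5 between them, as shared controls could give, it was 2967. With each table centred on its median the split turned to 239 higher and 287 lower, so which side is larger depends on the centring. Of the 128 genes called in the exon 9 knockout, 122 have an entry in the total knockout. There 19 were called with the same sign and 9 with the opposite sign, and 33 had a called difference. Over all genes, 10.8% were called in the total knockout and 4.45% had a called difference. The counts include the GABPB1 entries, whose names do not carry the same reads in both tables. The 122 were also chosen by their exon 9 change, which enters the difference. The plot of the gene lists shows the median of each list in both knockouts.

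**Figure D4:**
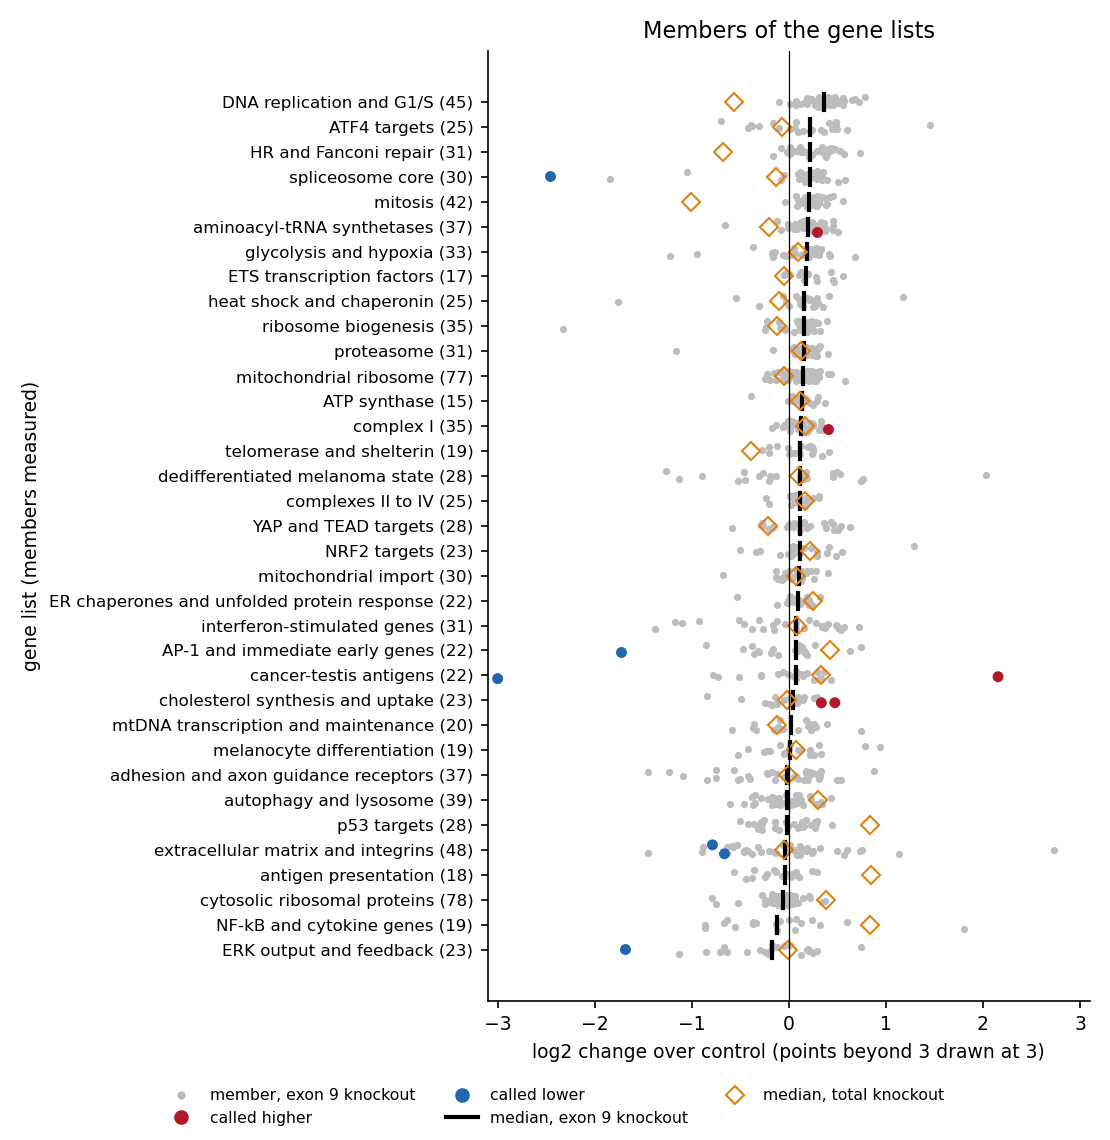
Log2 change of each member of the lists with at least 15 measured genes in the exon 9 knockout (grey points, called members coloured, black bar for the median), with the median in the total knockout as an open diamond. The DNA replication median is at 0.36 in the exon 9 knockout and at -0.56 in the total knockout, and that of p53 targets at -0.02 and 0.84.

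Entries of ribosomal RNA and of several nuclear RNAs lay below 0 in the exon 9 knockout, and only some of them were called. The libraries were made from total RNA with a stranded kit for messenger RNA, which captures poly(A) tails that ribosomal and small nucleolar RNAs lack. RNA28S5 fell from 109517 to 6919 (log2 change -3.98 ± 1.10, DESeq2 adjusted p 0.0380) and RNA45S5, the ribosomal RNA precursor, from 31566 to 3184 (-3.31 ± 0.82, DESeq2 adjusted p 0.0120) by the authors' deposited table. RNA18S5 was at -3.99 ± 1.30 and did not pass (DESeq2 adjusted p 0.130). In the total knockout the 3 were at 1.88, 2.35 and 1.78, and of these only RNA45S5 passed (DESeq2 adjusted p 0.0974, 0.0476 and 0.224). Of 52 small nucleolar RNA entries, a family looked at after the values were seen, 49 were below 0. Their median was -0.47, and -0.25 after removal of the bin medians. Only 2 were called lower, SNORA48 and SNORA68, where 0.664% of all members were. The 9 measured histone genes that can also make polyadenylated transcripts had 8 members below 0, a median of -0.92 and no call, against 2.23 with 6 called higher in the total knockout. NEAT1, the long RNA that builds paraspeckles, fell from 25834 to 10103 (authors' deposited table, -1.35 ± 0.24, DESeq2 adjusted p 3.65e-05), and MALAT1, a nuclear RNA, was at -0.92 ± 0.38 (DESeq2 adjusted p 0.325).

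Markers of the line were near their control levels. SOX10, a transcription factor expressed in melanocytes, stood at 41914 in controls and 42164 in knockouts, and MITF, the master regulator of pigment genes, at 2025 and 2517. The pigment genes PMEL and MLANA were near 61.3 and 49.6 in controls, and TYR, TYRP1 and DCT, the pigment enzymes, are not listed, so the line has little of the pigment programme. None of the 19 measured melanocyte genes (of 26) was called, and their median was 0.01. Of 22 urothelial, 12 fibroblast, 16 myeloid and lymphoid, and 10 endothelial markers, 7, 5, 5 and 4 were measured, and none was called. In the 28 genes of the dedifferentiated melanoma state none was called and the median was 0.12, with TGFBI, a matrix protein, at -1.27 ± 0.41 (authors' deposited table, DESeq2 adjusted p 0.126).

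Inflammatory and antigen-presentation genes had no call in the exon 9 knockout. The 18 measured genes of antigen presentation had a median of -0.04 against 0.85 in the total knockout, and B2M, the light chain of MHC class I, differed between the knockouts by -1.23 (normal p, adjusted 0.0383). The 19 genes of NF-kB and cytokines had a median of -0.12 against 0.83, with 12 of them below 0 in the exon 9 knockout. IL1B, on this list, was at 1.81 ± 0.55 and did not pass (authors' deposited table, DESeq2 adjusted p 0.0828). In the total knockout IL1B was called higher, at 2.50 (DESeq2 adjusted p 0.0335). Of 78 cytosolic ribosomal proteins, 55 were below 0 and none was called. Their median was -0.06 in the exon 9 knockout (-0.18 after removal of the bin medians) and 0.39 with 13 called higher in the total knockout. Aminoacyl-tRNA synthetases (37 measured, median 0.20), the proteasome (31, 0.15), ATF4 targets (25, 0.22), glycolysis and hypoxia genes (33, 0.19) and interferon-stimulated genes (31, 0.08) had TARS2 as their only call. After removal of the bin medians these medians were 0.11, 0.06, 0.16, 0.08 and 0.18, in the same order. The 23 measured genes of cholesterol synthesis and uptake, FDPS among them, had a median of 0.05. No gene was called in ribosome biogenesis (35 measured, median 0.15), heat shock proteins and chaperonins (25, 0.16), the unfolded protein response (22, 0.09), NRF2 targets (23, 0.11), fatty acid synthesis (12, 0.13), autophagy and lysosome (39, -0.02), mitochondrial import (30, 0.11) or YAP and TEAD targets (28, 0.11).

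Neighbouring genes moved together in some stretches, of which 2, picked from their values, are described. Members were cut into 255 blocks of 50 consecutive genes, of which the medians ran from -0.32 to 0.26, with the 5th and 95th percentiles at -0.12 and 0.15. Outside the 2 stretches, neighbouring blocks of chromosome 4 stood at -0.22 and -0.14, and the median of chromosome 19 was -0.06. The last 5 full blocks of chromosome 9, chr9:98069275-136808848, had medians from -0.32 to -0.17, and 217 of their 250 genes were below 0. The first 12 blocks of chromosome 3, chr3:2098813-156817062, had medians from 0.10 to 0.25, and 434 of their 600 genes were above 0. In the total knockout the same stretches had median log2 changes of -0.06 and 0.10. The shifts were small for a single gene: 1 gene was called in the chromosome 9 stretch and 3 in that of chromosome 3. SMARCA2, an ATPase of chromatin remodelling, and FOCAD, both named after their values were seen, were called higher at 0.51 ± 0.14 and 0.38 ± 0.10 and lie in the first block of chromosome 9, whose median was 0.26. ARHGEF3 lies in a block of chromosome 3 with a median of 0.22. Whether both clones carry these shifts cannot be seen without values per library.

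**Figure D5:**
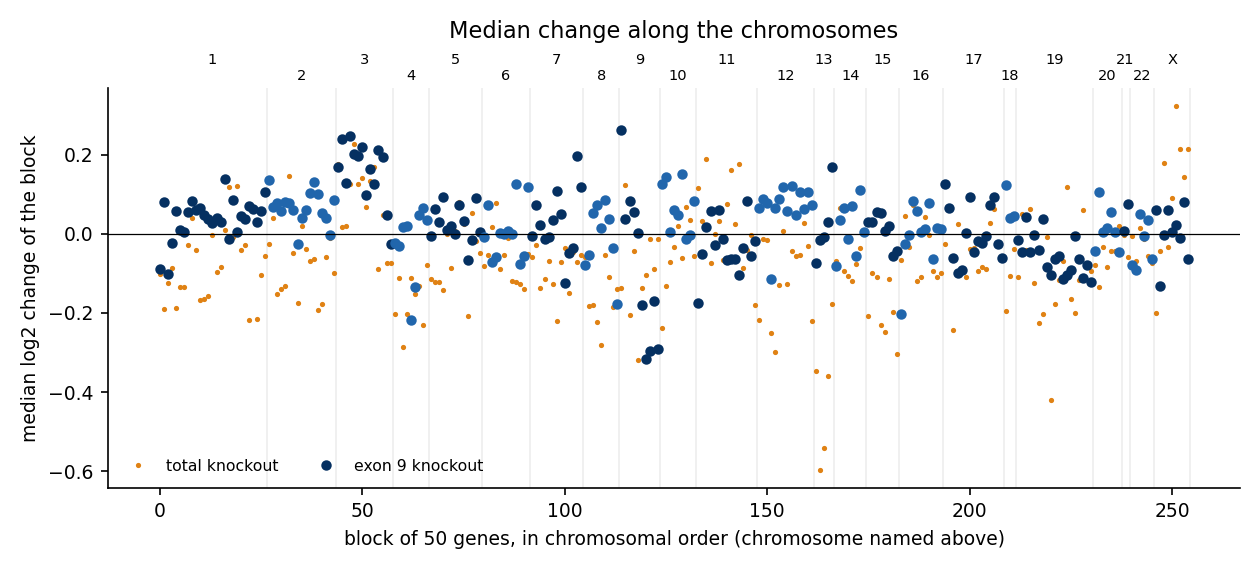
Median log2 change of each block of 50 consecutive genes, in chromosomal order, in the exon 9 knockout (blue, shade alternating by chromosome) and in the total knockout (orange). The first 12 blocks of chromosome 3 lie above 0 and the last blocks of chromosome 9 lie below 0 in the exon 9 knockout, down to -0.32.

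Promoters were read for the site that GABP is known to bind. The letters CCGGAAGT were searched on both strands in windows of 250 bases before to 50 after each annotated start (RefSeq, GRCh38.p14), and a gene was counted if any of its windows held them; 10441 members had a window. The motif was present for 9.52% of all these members, for 5 of 55 genes called lower (9.09%) and for 1 of 24 called higher (4.17%). The shorter letters CGGAAG, which the longer motif contains, were present for 37.3%, 25.5% and 37.5%. A match is a run of letters and not evidence of binding. Of the 6 called genes with the motif, 3 are shown with 11 bases on either side, on the strand of the gene and with the motif, here on the opposite strand, in capitals.
TRO promoter, chrX:54920785-54920814 (+): gaggcaggaccACTTCCGGccagggagggg
LENG8 promoter, chr19:54449043-54449072 (+): tccccacccagACTTCCGGtctgccttaaa
ARHGEF3 promoter, chr3:57078848-57078877 (-): ttcccggagccACTTCCGGggagggaggtg
TRO is the gene called lower with the largest change among them, LENG8, named after its value was seen, was at -1.99 ± 0.47, and ARHGEF3 is the single gene called higher that holds the motif (authors' deposited table).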

How the data were processed

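The A-375 comparisons come from tables the authors deposited, 1 per knockout. The submitters' processing notes list HISAT2, SAMtools, StringTie, DESeq2 and the build hg38 and give no versions. The sources used here do not say which control libraries, annotation or gene filter a fit used. The mean column is a signal: counts divided by size factors and averaged over a fit's libraries, per the file headers. The log2 columns hold the authors' fitted fold change and the error of that fit. The deposited score column is the Wald statistic, and the p-value columns are its p, a Benjamini-Hochberg correction and a deposited q-value. Adjusted p recomputed from the p column differed by at most 1.51e-05. Depth per library is unknown, so precision is the deposited standard error. The labels do not say that libraries of a clone are separate cultures, and p-values measure only the spread between these libraries.

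A call is an adjusted p under 0.05. Differences between knockouts use the 2 deposited changes and errors, assumed independent, with a normal p adjusted over the genes whose mean reaches 10 in both. If controls are shared, this error is too large. Scripts ran in Python 3.11.15 with pandas 2.3.3, SciPy 1.17.1, NumPy 2.4.6 and matplotlib 3.10.9, and were tested on simulated data.

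Named genes: the GABPB1 entries, GABPA, GABPB2 and TERT; up to 15 called in each direction by adjusted p, where the mean reached 100 and the change 2-fold; the 5 called each way with the highest mean; up to 4 called members of each of 44 lists, or else its 2 smallest adjusted p; and 5 each way by the difference. Read-through, antisense, pseudogene, clone-based and date names (18 called) were passed over, and some genes that the rule gives are not reported here. The members and lists were chosen with earlier results of these data known. The 24 names turned into dates by a spreadsheet were tested and not named, and 2 members had no p.

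Places and gene types are from GENCODE release 29 and promoters from RefSeq on GRCh38.p14. Alternatives were other thresholds, q-values, filters, centring, removal of the median of the bin of mean count or of the chromosomal block (both chosen after seeing the data), other control numbers, a correlation between tables and a shorter motif.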

Additional observations from a re-analysis of the deposited data

Results flagged for a closer look

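The 10 genes below differ between the exon 9 and the total knockout by the test of the difference itself (normal p, Benjamini-Hochberg adjusted); they have the 5 smallest p in each direction among genes with a symbol that the naming rule keeps, apart from the GABPB1 entries, whose names do not carry the same reads in both tables. Lower in the exon 9 knockout were PDE2A, by -5.07 on the log2 scale, HIST3H2A by -2.58, HIST2H2BE by -4.15, SCD5, a fatty acid desaturase, by -1.15, and CD163L1, a scavenger receptor, by -5.49. Higher in the exon 9 knockout were EMILIN2, a matrix glycoprotein, by 4.12, RMND5B, a ubiquitin ligase subunit, by 3.16, NEK9, a mitotic kinase, by 2.48, USP11, a deubiquitinase, by 1.98, and ICA1 by 3.88. Of these, PDE2A alone was called in the exon 9 knockout by the authors' deposited table. EMILIN2, RMND5B, NEK9, USP11 and ICA1 lay between -0.38 and 0.20 there and between -4.50 and -2.14 in the total knockout. The histone genes HIST3H2A and HIST2H2BE were at -0.92 and -1.39 in the exon 9 knockout, where ribosomal RNA was lower too.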

How the results depend on the processing

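Of the 128 calls, 62 held at an adjusted p under 0.01 (14 higher, 48 lower). Asking also for a log2 change of at least 1 left 74 (11 higher, 63 lower), and the share higher went from 26.6% to 14.9%. The other alternatives gave between 107 and 143 calls. With the changes centred on their median 127 were called, 121 of them shared, and RFX5, FDPS, FAT1 and NPIPA1 lost their call (adjusted p 0.0630, 0.0571, 0.0593 and 0.0524). With the median of the bin of mean count removed 110 were called, 85 shared, and with that of the chromosomal block 143, 102 shared; in both, all calls of the abundant genes FAT1, RFX5, FDPS and TARS2 were lost, and under the bin medians IL1B and RRP12 gained one (adjusted p 0.0237 and 0.00684), under the block medians ABCC3 and HIST3H2A (0.0496 and 0.0384). The difference between knockouts was called for 2967 genes (1771 higher, 1196 lower) with a correlation of 0.5 between the tables, and for 526 (239 higher, 287 lower; share higher 45.4% against 59.7%) with each table centred. The knockout level of GABPB1S was 4080 with 6 controls, and the shorter motif was present for 37.3% of members, 25.5% of those called lower and 37.5% of those called higher. No called result changed direction under the alternatives run. No paired analysis was possible because the files used here hold no value per library, and for the same reason no library could be left out in turn. Low counts limit what can pass: the median standard error was 0.50 in the lowest bin of mean count and 0.17 in the highest.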
